A study of Arabidopsis thaliana with 42 samples.

Results

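The response of Arabidopsis thaliana seedlings to 60 min of KANADI1 (KAN1) activation was measured in 12 of the 42 arrays of a study of the transcription factors KAN1 and REVOLUTA (REV). Each factor was fused to the hormone-binding domain of the glucocorticoid receptor (GR), which keeps the fusion protein in the cytoplasm until the steroid dexamethasone (DEX) lets it enter the nucleus. The groups were 35S::KAN1-GR seedlings after 60 min in 50 µM DEX, 35S::KAN1-GR seedlings frozen at 0 min, just before DEX was given, Columbia wild type after 60 min in DEX, and Columbia wild type at 0 min, each with 3 arrays. All were whole seedlings of the Columbia ecotype, 7 days old, grown in liquid medium with sucrose, and these wild-type flasks were the ones grown alongside KAN1-GR (biological replicates 4 to 6, called day 2 here). The response is the change of KAN1-GR over the 60 min minus the change of the day 2 wild type, so a change that DEX or handling gave in both genotypes cancels. The study holds no KAN1-GR seedlings kept 60 min without DEX and no line with GR alone. A change from handling or DEX that is particular to the fusion line therefore stays in the response and cannot be told apart from one through KAN1. The 35S::GR-REV line with its own day 1 wild type, and the 30 min arrays of KAN1-GR and the day 2 wild type, serve below as comparisons. The 35S promoter is active in most tissues, so the fusion protein was not limited to the cells that normally hold KAN1, the seedlings kept their own KAN1 gene, and 1 genotype label covers all KAN1-GR arrays. The labels name no inhibitor of translation, and first and later targets of KAN1 cannot be told apart.

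KANADI proteins are transcription factors of the GARP family that set the lower, abaxial side of leaves and the outer side of the stem's vascular tissue. They work against the HD-ZIPIII factors, of which REV is one and which set the upper, adaxial side, and KAN1 is known mainly as a repressor of transcription. Auxin transport, auxin response and leaf growth genes are among the processes tied to this antagonism.

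Values were deposited on the log2 scale and centred so that 0 is the median of the untreated wild-type arrays for each probe set; levels of different genes therefore cannot be compared, nor the presence of tissue markers checked. Of 22810 probe sets, 16129 were tested, and 15138 of these read exactly 1 gene. Replicates came from separate flasks according to the labels, and the number of arrays, 3 a group, sets how precise a value can be, with a median standard error (SE) of 0.213 for a response. The KAN1 probe set itself read 8.12, 8.73 and 8.86 in KAN1-GR at 60 min and 8.91, 9.39 and 9.26 in KAN1-GR at 0 min, against -0.026, -0.015 and 0.37 in wild type at 60 min and -0.0077, 0.50 and 0.0077 in wild type at 0 min, and it reads the transgene together with the native gene. Every KAN1-GR array carried the transgene's signal, and its response of -0.56 ± 0.31 did not pass the test (limma, adjusted p = 0.349). Arrays of a group correlated at 0.73 to 0.787 in KAN1-GR at 60 min and at 0.719 to 0.75 in KAN1-GR at 0 min, against 0.419 to 0.538 in wild type at 60 min and 0.352 to 0.613 in wild type at 0 min. The lowest of these correlations was between wild-type replicates 4 and 6 at 0 min. They do not rank the groups by scatter, because arrays that differ from untreated wild type share that difference in the centred values. The root mean square deviation of an array from its group mean was 0.198 to 0.226 in KAN1-GR at 60 min and 0.15 to 0.158 at 0 min. In wild type it was 0.153 to 0.179 at 60 min and 0.137 to 0.206 at 0 min. Before DEX, KAN1-GR already differed from wild type in 1730 probe sets (10.7% of those tested, 4.94% higher and 5.78% lower), which the response subtracts. Because whole seedlings were ground, fewer cells of a type and less RNA per cell cannot be told apart in any value below.

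The KAN1-GR response at 60 min passed the test in 1103 of the 16129 tested probe sets, 464 upwards and 639 downwards (limma, Benjamini-Hochberg adjusted p under 0.05). These are 6.84% of all tested probe sets, 2.88% risen and 3.96% fallen, and every count of a gene list below is to be read against them. Of the 1103, 615 changed by 2-fold or more (264 risen and 351 fallen), 102 by 4-fold or more (40 risen and 62 fallen) and 21 by 8-fold or more (13 risen and 8 fallen). The median response was 1.08 among the risen (2.12-fold) and -1.06 among the fallen (2.09-fold), against -0.00064 over all tested probe sets.

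In most called probe sets the change within KAN1-GR was larger than that of wild type. Over the same 60 min, 1984 probe sets changed within KAN1-GR, whether or not they changed in wild type, against 77 within the day 2 wild type (12.3% and 0.477% of those tested). The KAN1-GR changes were 902 rises (5.59%) and 1082 falls (6.71%), and those of wild type 37 rises (0.229%) and 40 falls (0.248%). Among the 1103, the change within KAN1-GR was larger in size than the wild type's in 958 and smaller in 145, with median sizes of 0.87 in KAN1-GR and 0.21 in wild type. In 293 of the 464 risen probe sets the 3 KAN1-GR arrays at 60 min lay above all 9 other arrays, and in 455 of the 639 fallen they lay below all 9. Of all tested probe sets, 6.44% lay above and 7.07% below. Calls were made from these same arrays, which favours such separation, so these counts describe the called probe sets and add no support. The called probe sets were spread over all chromosomes, with 5.96% (chromosome 3) to 7.76% (chromosome 1) of the tested probe sets called. Leaving out wild-type replicate 6 at 0 min gave the lowest count of any left-out array, 806, and the choice of baseline moved the count most: 2898 probe sets (18% of those tested, 8.38% higher and 9.59% lower) differed between KAN1-GR and wild type at 60 min alone.

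**Figure D1:**
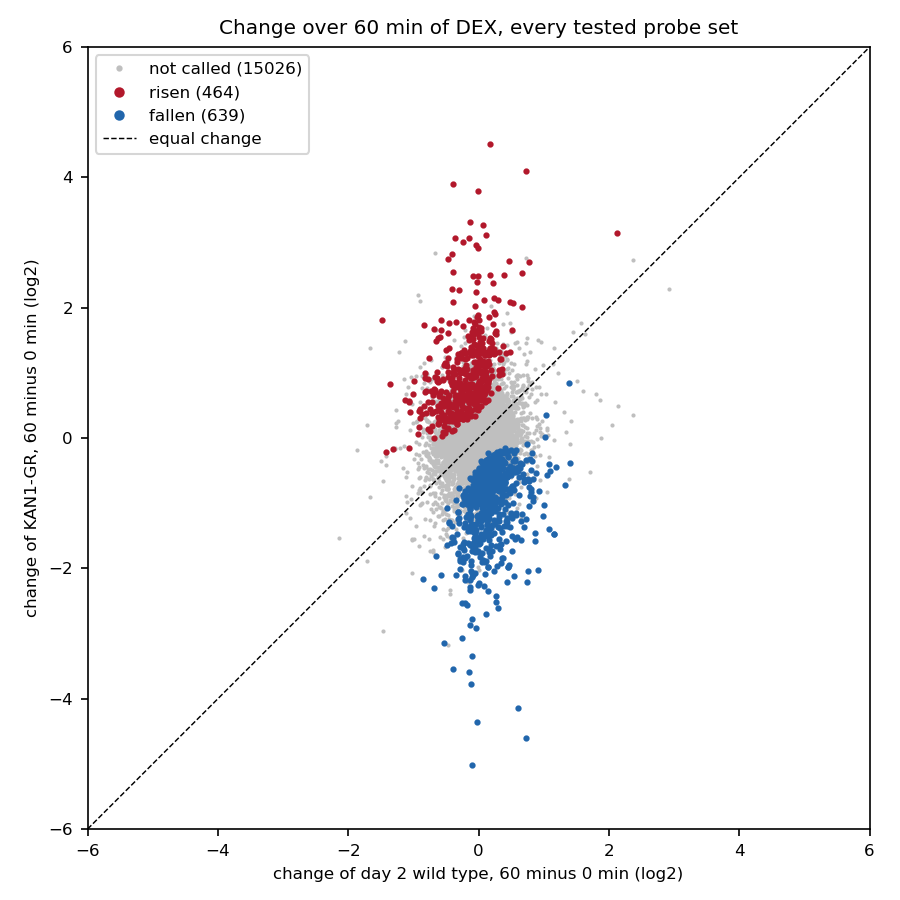
The change over 60 min of DEX in KAN1-GR (vertical axis, log2) is plotted against that of the day 2 wild type (horizontal axis, log2) for each of the 16129 tested probe sets, with the 464 risen in red, the 639 fallen in blue and the others in grey. The coloured points stretch along the vertical axis, between about -5.02 and 4.52 in KAN1-GR, and few lie far from 0 on the horizontal axis.

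The 15 largest falls included receptor kinase genes, a homeodomain gene and an auxin-induced SAUR gene. CRK30 (AT4G11460), a cysteine-rich receptor-like kinase, read -3.55, -3.92 and -4.24 in KAN1-GR at 60 min and 0.70, 0.57 and 0.82 in KAN1-GR at 0 min, against -0.21, -0.23 and 0.16 in wild type at 60 min and -0.35, -0.68 and -1.46 in wild type at 0 min. Its response was -5.33 ± 0.58 (SE), a 40.3-fold fall (limma, adjusted p = 6.44e-08). The 3 treated KAN1-GR arrays lay far below the other 9, and wild type itself changed by 0.73. AT3G19850, which the reference table leaves without a symbol, read -4.16, -4.40 and -4.71 in KAN1-GR at 60 min and 0.62, 0.42 and 0.74 in KAN1-GR at 0 min, against -0.19, -0.40 and -0.12 in wild type at 60 min and -0.035, -0.23 and -0.11 in wild type at 0 min, a response of -4.91 ± 0.36.

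AT4G34770, listed with the synonym SAUR1 and so a member of a family of small auxin-induced growth genes, read -3.86, -3.40 and -3.92 in KAN1-GR at 60 min and 0.39, 0.33 and 0.50 in KAN1-GR at 0 min, against 0.50, 0.31 and 0.48 in wild type at 60 min and 0.0013, -0.0039 and -0.51 in wild type at 0 min. AT5G61590, listed as DEWAX, an ERF-type repressor of wax synthesis genes, read -4.18, -4.24 and -4.40 in KAN1-GR at 60 min and 0.047, 0.0097 and 0.20 in KAN1-GR at 0 min, against -0.25, 0.11 and -0.25 in wild type at 60 min and -0.32, -0.054 and 0.065 in wild type at 0 min. Their responses were -4.73 ± 0.32 and -4.34 ± 0.22 (limma, adjusted p = 5.28e-12 and 4.52e-15), and in both genes the treated KAN1-GR arrays lay below all others.

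BEL1, a homeodomain factor known from ovule development, read -2.35, -2.34 and -2.27 in KAN1-GR at 60 min and 0.14, 0.32 and 0.39 in KAN1-GR at 0 min, against 0.54, 0.25 and 0.017 in wild type at 60 min and -0.030, 0.030 and -0.067 in wild type at 0 min. BEL1 fell, with a response of -2.90 ± 0.26, and the treated KAN1-GR arrays did not overlap the rest. FLS2, the receptor of bacterial flagellin, read -2.49, -3.26 and -3.23 in KAN1-GR at 60 min and -0.51, -0.21 and -0.15 in KAN1-GR at 0 min, against 0.55, 0.36 and 0.48 in wild type at 60 min and 0.33, 0.37 and 0.35 in wild type at 0 min. Its response was -2.82 ± 0.29 (adjusted p = 2.78e-08), and FLS2 was already -0.64 relative to wild type before DEX. Also among the 15 largest falls were PERK15, an extensin-like receptor kinase, with -2.81 ± 0.31, and IQD24, of the calmodulin-binding IQD family, with -2.81 ± 0.26.

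The other 7 of these 15 falls have no symbol in the reference table. AT3G15570, AT1G64500 and AT1G51805 had responses of -3.66 ± 0.35, -3.44 ± 0.34 and -3.24 ± 0.28. AT4G34220 had -2.88 ± 0.32, with values of -1.99, -2.89 and -1.96 in KAN1-GR at 60 min against 0.52, 0.41 and 0.997 in KAN1-GR at 0 min. The responses of AT1G78170 (-2.96 ± 0.40) and AT4G27900 (-2.95 ± 0.28) were -1.40 and -1.89 against wild type at 60 min alone, and both genes stood higher in KAN1-GR than in wild type before DEX, by 1.56 and 1.05. AT5G62730 had -3.14 ± 0.66, which did not pass when the arrays were quantile normalised (-1.70, adjusted p = 0.148).

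The 15 largest rises included genes of a cytochrome P450, NAC and MYB factors and a phosphatase of abscisic acid (ABA) signalling. CYP96A9 (AT4G39480), a cytochrome P450, read 4.50, 4.32 and 4.64 in KAN1-GR at 60 min and -0.030, 0.018 and -0.085 in KAN1-GR at 0 min, against 0.015, 0.42 and -0.10 in wild type at 60 min and -0.0047, -0.21 and 0.0047 in wild type at 0 min. Its response of 4.34 ± 0.30 was a 20.2-fold rise (limma, adjusted p = 5.28e-12), with 9 arrays near 0 and 3 far above. HAI1, a clade A protein phosphatase 2C that damps ABA signalling, read 3.25, 3.47 and 3.07 in KAN1-GR at 60 min and -0.81, -0.26 and -0.83 in KAN1-GR at 0 min, against 0.10, 0.58 and 0.29 in wild type at 60 min and -0.091, 0.54 and 1.69 in wild type at 0 min. Its response was 4.29 ± 0.63; the treated arrays were highest, and the wild-type arrays at 0 min were spread widely.

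CHAT, the acetyltransferase that makes hexenyl acetate, read 3.64, 3.34 and 2.92 in KAN1-GR at 60 min and -0.013, -0.017 and -0.021 in KAN1-GR at 0 min, against -0.016, -0.014 and 0.088 in wild type at 60 min and -0.0056, 0.085 and 0.35 in wild type at 0 min. HPL1, the hydroperoxide lyase earlier in that pathway, read 2.21, 2.68 and 2.46 in KAN1-GR at 60 min and 0.17, -0.36 and -0.94 in KAN1-GR at 0 min, against -0.49, 0.16 and -0.13 in wild type at 60 min and 0.14, 0.15 and 0.49 in wild type at 0 min. The responses were 3.44 ± 0.26 for CHAT and 3.24 ± 0.64 for HPL1 (adjusted p = 2.34e-11 and 0.000795). In both, the 3 treated arrays lay above the other 9.

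Among regulators, NAC6 (AT5G39610, also ANAC092), known as a promoter of leaf senescence, read 3.09, 2.77 and 3.04 in KAN1-GR at 60 min and -0.18, 0.12 and -0.065 in KAN1-GR at 0 min, against 0.92, 0.49 and 0.35 in wild type at 60 min and 0.46, 0.96 and 1.05 in wild type at 0 min, a response of 3.24 ± 0.29. NAC080 rose by 3.22 ± 0.40, MYB45 by 3.19 ± 0.24 and MYB50 by 3.00 ± 0.44. In each of these 4 factors the 3 treated KAN1-GR arrays lay above the other 9. HIS1-3, a linker histone known to be induced by drought, had a response of 3.29 ± 0.35, of which the change within KAN1-GR was 1.81 and the change in wild type -1.48. The phosphate transporter PHT1;5 rose by 3.43 ± 0.41, with 3.29, 3.65 and 2.61 in KAN1-GR at 60 min and -0.20, 0.84 and -0.31 in KAN1-GR at 0 min.

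The remaining genes among the 15 largest rises were EDA12 (3.80 ± 0.43), the phytocystatin CYS2 (3.22 ± 0.40), the glucosyltransferase UGT75B1 (2.95 ± 0.44), AT4G29570 (3.37 ± 0.60) and PYD4 (3.00 ± 0.93). AT4G29570 did not pass under quantile normalisation (2.12, adjusted p = 0.0610). PYD4 passed only narrowly (adjusted p = 0.0438) and, with any of 11 of the 12 arrays left out, did not pass; its response over those 12 fits was 2.70 to 3.33. It also did not pass against wild type at 60 min alone (1.75), under quantile normalisation (2.37), with all probe sets tested or with an unmoderated spread. PYD4 read 2.82, 2.93 and 3.06 in KAN1-GR at 60 min and -0.76, 0.50 and -0.26 in KAN1-GR at 0 min, against 1.35, 1.15 and 1.07 in wild type at 60 min and 1.12, 1.39 and 0.71 in wild type at 0 min. The treated KAN1-GR arrays of PYD4 lay above all others, while the 2 wild-type groups overlapped.

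**Figure D2:**
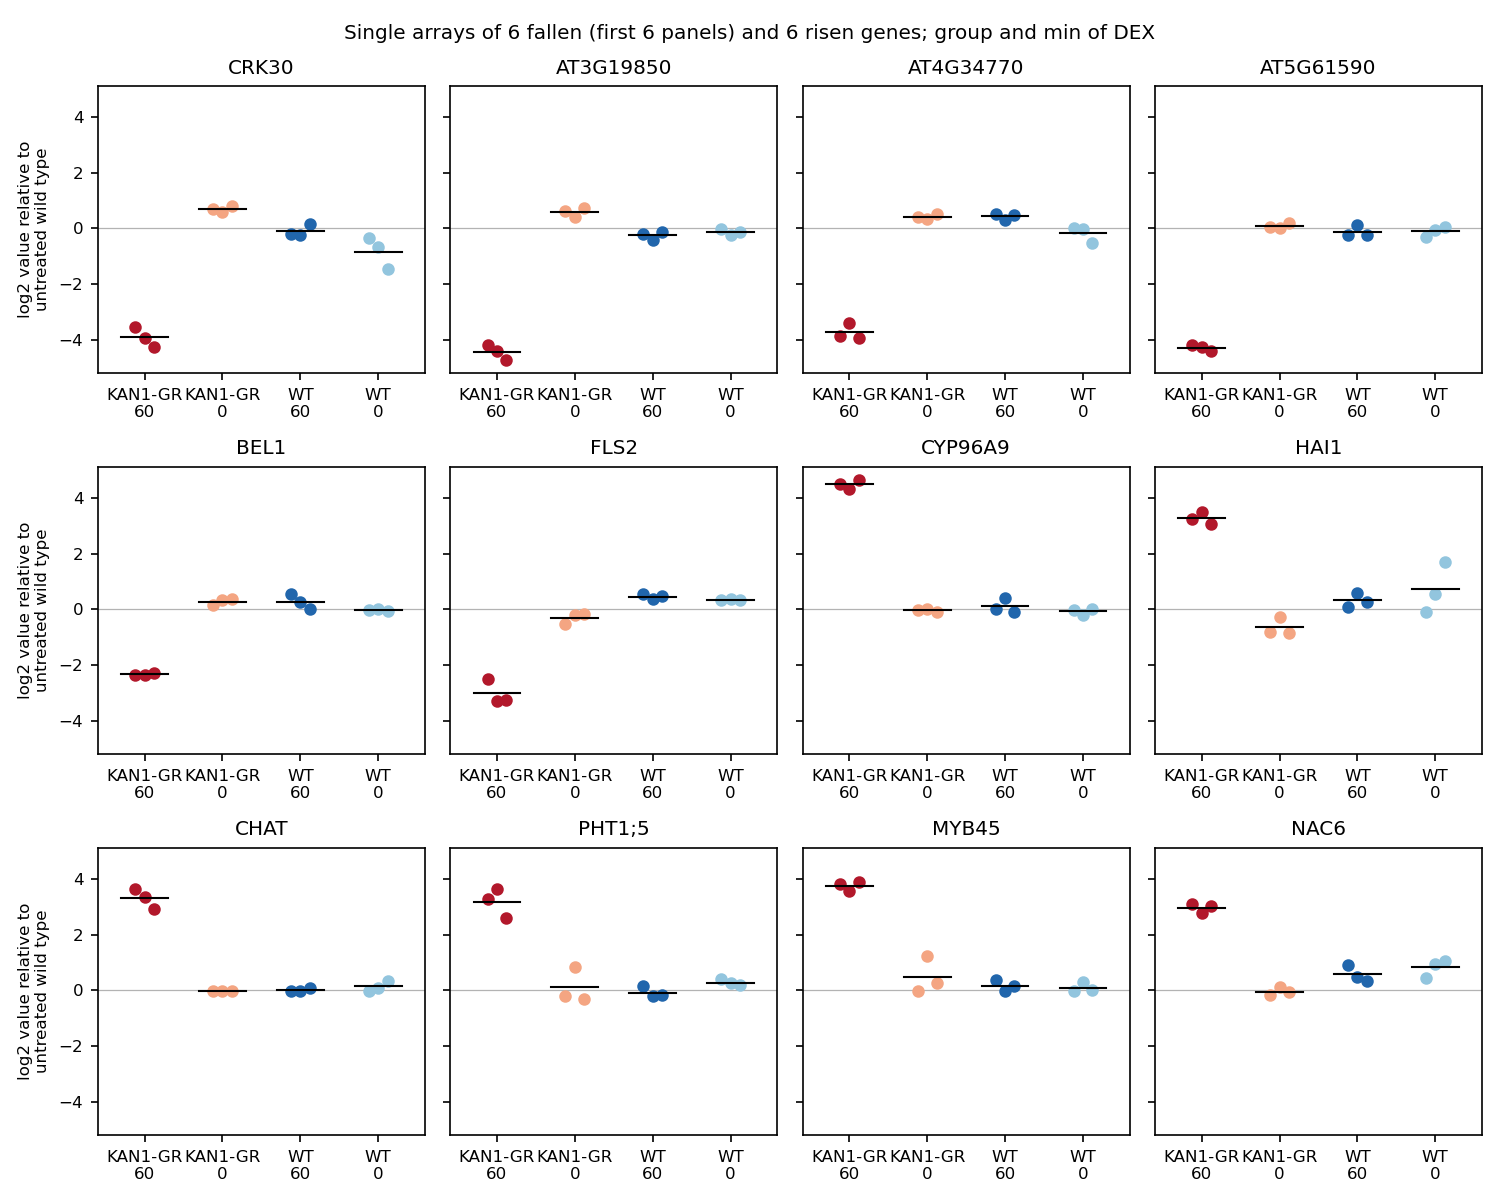
Single arrays of 6 fallen genes (first 6 panels) and 6 risen genes, as log2 values relative to untreated wild type on the vertical axis, by group and min of DEX on the horizontal axis; bars are means of 3 arrays. In each panel the 3 KAN1-GR arrays at 60 min lie apart from the other 9, lowest for AT3G19850, between -4.71 and -4.16, and highest for CYP96A9, between 4.32 and 4.64.

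Of the genes that set the 2 sides of the leaf, in the KANADI, HD-ZIPIII, LITTLE ZIPPER and abaxial-adaxial lists, 7 fell and 0 rose. The numbers tested were 4, 5, 2 and 7 in that order. KAN2, REV and YAB3, among the 7, lost their calls with some arrays left out, as given below. The HD-ZIPII list, whose genes also act in the adaxial domain, had 3 falls and 1 rise among 7 tested. Over all tested probe sets 3.96% fell and 2.88% rose. Among the 4 KANADI genes, 2 fell and 0 rose, with a median response of -0.83 against -0.00064 over all tested probe sets; this list holds the KAN1 probe set, which also reads the transgene. KAN3 read -1.65, -1.81 and -1.42 in KAN1-GR at 60 min and 0.11, -0.090 and -0.15 in KAN1-GR at 0 min, against 0.64, -0.0031 and 0.17 in wild type at 60 min and 0.090, -0.054 and -0.51 in wild type at 0 min. Its response was -2.01 ± 0.33 (adjusted p = 7.29e-05), with the treated KAN1-GR arrays below all others. KAN2 had -1.10 ± 0.34 (adjusted p = 0.0453) and did not pass with any of 8 of the 12 arrays left out, over which it ranged between -1.38 and -0.87. KAN2 also did not pass under quantile normalisation (-0.96), with all probe sets tested, with an unmoderated spread, with a replicate block or with the arrays of the contrast alone. KAN4, the ovule-expressed member, had 0.016 ± 0.37 and did not pass.

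Of the 5 HD-ZIPIII genes, REV had a response of -0.64 ± 0.17 (adjusted p = 0.0145), and 0 rose. REV read -0.47, -0.77 and -0.27 in KAN1-GR at 60 min and -0.16, -0.11 and -0.085 in KAN1-GR at 0 min, against 0.042, -0.11 and 0.19 in wild type at 60 min and -0.083, -0.20 and -0.36 in wild type at 0 min. It did not pass without wild-type replicate 6 at 0 min (-0.57), without wild-type replicate 6 at 60 min (-0.56), without KAN1-GR replicate 2 at 60 min (-0.50), under quantile normalisation (-0.66), with the wild type of both days (-0.38), with the arrays of the contrast alone or with a spread that follows the mean. Against its own 0 min alone REV was -0.39 and passed. PHB, PHV, CNA and ATHB8 had -0.53, 0.064, -0.086 and -0.40 and did not pass, although PHB passed under quantile normalisation (-0.88). The LITTLE ZIPPER genes, which encode small peptides that bind and block HD-ZIPIII proteins, had -0.27 (ZPR1) and 0.0066 (ZPR3), and neither passed.

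Among 7 tested regulators of the leaf's upper and lower sides, 4 fell and 0 rose, with a median of -0.83. AS2, which acts in the adaxial domain and which KAN1 is known to repress, read -1.35, -1.26 and -0.73 in KAN1-GR at 60 min and -0.087, -0.26 and -0.14 in KAN1-GR at 0 min, against 0.073, 0.34 and 0.34 in wild type at 60 min and -0.018, -0.066 and -0.076 in wild type at 0 min. Its response was -1.26 ± 0.27 (limma, adjusted p = 0.00264), and the treated KAN1-GR arrays lay below the other 9. The abaxial YABBY genes YAB1, YAB5 and YAB3 had -1.08 ± 0.19, -0.99 ± 0.23 and -0.83 ± 0.23 (adjusted p = 0.000177, 0.00481 and 0.019). YAB1 was -0.71 against its own 0 min alone and -0.50 against wild type at 60 min alone. YAB3 did not pass against wild type at 60 min alone (-0.072), nor without wild-type replicate 6 at 60 min (-0.74), KAN1-GR replicate 1 at 0 min (-0.71) or KAN1-GR replicate 2 at 60 min (-0.76); before DEX it stood 0.76 above wild type. AS1, ARF3 and ARF4 had -0.010, 0.12 and -0.63 and did not pass.

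HD-ZIPII genes encode shade- and auxin-linked homeodomain repressors that also act in the adaxial domain. Of 7 tested, 3 fell and 1 rose, with a median of -0.011. HAT22 read -2.76, -1.72 and -2.49 in KAN1-GR at 60 min and -0.046, -0.077 and -0.51 in KAN1-GR at 0 min, against -0.18, 0.18 and -0.13 in wild type at 60 min and 0.17, 0.29 and 0.061 in wild type at 0 min, a response of -1.90 ± 0.30 that was -1.23 under quantile normalisation. HAT2 read -0.85, -0.73 and -0.71 in KAN1-GR at 60 min and 0.070, 0.47 and 0.11 in KAN1-GR at 0 min, against 0.51, 0.27 and 0.0050 in wild type at 60 min and 0.11, -0.15 and -0.39 in wild type at 0 min. HAT2's response was -1.38 ± 0.24 (adjusted p = 0.000187), with the treated KAN1-GR arrays lowest. HAT1 had -0.71 ± 0.20 and did not pass in 6 of the 12 fits without 1 array (-0.81 to -0.56), nor against wild type at 60 min alone (-0.20). HAT1 also did not pass under quantile normalisation (-0.65) or with the arrays of the contrast alone.

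ATHB2, the shade-induced member, rose. It read 2.53, 2.42 and 2.45 in KAN1-GR at 60 min and 0.25, 0.72 and 0.72 in KAN1-GR at 0 min, against 0.39, 0.33 and 0.54 in wild type at 60 min and -0.12, 0.33 and 0.32 in wild type at 0 min. The response was 1.66 ± 0.28 (adjusted p = 0.000135), and 0.85 under quantile normalisation, where it did not pass (adjusted p = 0.0780). HAT3, HAT9 and HAT14 had 0.36, 0.19 and -0.011 and did not pass.

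Of 17 tested auxin transport genes 5 fell and 0 rose, with a median of -0.48. PIN4, an auxin efflux carrier, read -2.20, -2.05 and -1.69 in KAN1-GR at 60 min and -0.23, -0.0079 and 0.24 in KAN1-GR at 0 min, against -0.19, -0.18 and -0.082 in wild type at 60 min and -0.52, -0.12 and -0.22 in wild type at 0 min. PIN4's response was -2.12 ± 0.21 (limma, adjusted p = 1.80e-08), with the treated arrays lowest. PIN3, another efflux carrier, had -0.96 ± 0.16, and the influx carrier LAX1 had -0.48 ± 0.15 (adjusted p = 9.44e-05 and 0.0398). PIN7 had -0.090 and did not pass. NPY3 and NPY5, whose proteins act with kinases that steer PIN proteins, had -0.85 ± 0.26 and -0.63 ± 0.17. NPY3 did not pass in 9 of the 12 fits without 1 array (-1.03 to -0.75), under quantile normalisation (-0.63), with all probe sets tested or with an unmoderated spread. NPY5 did not pass without wild-type replicate 6 at 0 min (-0.58), KAN1-GR replicate 2 at 0 min (-0.57) or KAN1-GR replicate 1 at 60 min (-0.55). Against wild type at 60 min alone NPY5 was -0.42.

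TAA1, the first enzyme of auxin synthesis, was the 1 of 4 tested synthesis genes that passed, at -0.91 ± 0.24. It did not pass against wild type at 60 min alone (-0.37), nor without wild-type replicate 6 at 0 min (-0.78) or wild-type replicate 4 at 60 min (-0.76). Of 19 tested Aux/IAA genes, which encode auxin-labile repressors, 3 fell and 1 rose, with a median of -0.16. IAA3 had -1.37 ± 0.30, IAA1 -0.99 ± 0.26, IAA18 -0.61 ± 0.18 and IAA11 0.87 ± 0.22. IAA1 did not pass against its own 0 min alone (-0.54). IAA18 did not pass in 7 of the 12 fits without 1 array (-0.72 to -0.44), under quantile normalisation (-0.33), with a replicate block or with the arrays of the contrast alone. Against wild type at 60 min alone IAA18 was -1.02. IAA11 did not pass without KAN1-GR replicate 2 at 60 min (0.69) or under quantile normalisation (0.63). Among 14 tested auxin receptors and ARF factors, ARF10, of the repressing class, rose by 1.46 ± 0.21 and 0 fell. ARF10 read 1.93, 2.05 and 1.59 in KAN1-GR at 60 min and 0.20, 0.53 and 0.41 in KAN1-GR at 0 min, against -0.026, -0.090 and -0.13 in wild type at 60 min and -0.037, -0.081 and -0.19 in wild type at 0 min.

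Of 11 tested GH3 and SAUR genes, early auxin targets, 2 fell and 0 rose, with a median of -0.51. SAUR16 had -1.57 ± 0.30 and SAUR14 -1.14 ± 0.16 (adjusted p = 0.000619 and 8.49e-06). SAUR14 did not pass under quantile normalisation (-0.43). The 4 GH3 and SAUR genes not tested were GH3.1, GH3.2, SAUR10 and SAUR62.

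ABA signalling genes changed in both directions. Of the 9 PYR/PYL receptors, 4 fell and 1 rose, with a median of -0.33. PYL6 read -2.52, -1.97 and -1.83 in KAN1-GR at 60 min and -0.33, -0.12 and 0.058 in KAN1-GR at 0 min, against 0.13, -0.099 and 0.22 in wild type at 60 min and -0.066, -0.37 and -0.66 in wild type at 0 min, a response of -2.42 ± 0.23 (limma, adjusted p = 6.49e-09). PYL5, PYL4 and PYL1 had -1.68 ± 0.22, -1.22 ± 0.12 and -1.16 ± 0.25. In each of these 4 receptors the treated KAN1-GR arrays lay below the other 9, and PYL4 had the smallest SE of the receptors. PYL7 had 1.41 ± 0.32 and read -0.26, 0.27 and -0.18 in KAN1-GR at 60 min and -0.86, -0.67 and -0.85 in KAN1-GR at 0 min, against -0.37, -0.11 and -0.64 in wild type at 60 min and -0.078, 0.23 and 0.74 in wild type at 0 min. The groups of PYL7 overlapped: its change was 0.73 within KAN1-GR and -0.67 in wild type. PYR1, PYL2, PYL8 and PYL9 had -0.23, -0.33, -0.30 and 0.55 and did not pass.

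Among the 10 tested members of the list of ABA phosphatases and kinases, 3 rose and 1 fell, with a median of 0.19. ABI2, a clade A phosphatase like HAI1, read 2.08, 2.34 and 1.58 in KAN1-GR at 60 min and -0.015, -0.032 and -0.038 in KAN1-GR at 0 min, against -0.032, -0.021 and -0.024 in wild type at 60 min and 0.13, -0.034 and -4.3e-05 in wild type at 0 min. ABI2's response was 2.09 ± 0.15 (adjusted p = 1.70e-11), with 9 arrays close to 0 and the treated ones well above. ABI1, HAB1, HAB2 and PP2CA, also clade A phosphatases, had -0.60, -0.12, 0.15 and 0.23 and did not pass. SNRK2.3, a kinase that these phosphatases hold off, had 0.67 ± 0.20 and did not pass in 8 of the 12 fits without 1 array (0.54 to 0.77). SNRK2.3 was 0.24 against wild type at 60 min alone and 0.38 against its own 0 min alone, and neither passed, nor did it pass with the arrays of the contrast alone. The 1 fall in this list was CIPK12 (-0.82 ± 0.16), a calcium-linked kinase of the CIPK family and not a clade A phosphatase or SNRK2 kinase.

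Of 12 tested ABA- and dehydration-induced genes, 1 rose and 0 fell, with a median of 0.29. ATHB12, a homeodomain factor induced by ABA, read 3.00, 3.5 and 2.73 in KAN1-GR at 60 min and 0.64, 0.76 and 0.39 in KAN1-GR at 0 min, against -0.33, -0.30 and 0.16 in wild type at 60 min and -0.0037, -0.21 and 0.0037 in wild type at 0 min, a response of 2.57 ± 0.36. RD20, a drought-induced gene, had 3.51 ± 1.36 with a wide error and did not pass (adjusted p = 0.132). RD20 read -0.53, -1.28 and -1.001 in KAN1-GR at 60 min and -3.48, -3.88 and -3.98 in KAN1-GR at 0 min, against -0.36, 0.74 and -0.77 in wild type at 60 min and 0.084, 0.13 and 1.41 in wild type at 0 min, so all 6 of these KAN1-GR arrays lay below 0. RD20 did pass under quantile normalisation (4.06), against its own 0 min alone (2.84), with the wild type of both days (3.63) and with the arrays of the contrast alone. COR15A and ATHB7 had 1.07 and 0.77 and did not pass.

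GA20OX3, an enzyme of gibberellin synthesis, read 2.10, 3.71 and 2.86 in KAN1-GR at 60 min and -0.00053, -0.022 and -0.027 in KAN1-GR at 0 min, against -0.030, -0.013 and -0.014 in wild type at 60 min and -0.0051, -0.024 and 0.0073 in wild type at 0 min. GA20OX3's response was 2.92 ± 0.30 (limma, adjusted p = 3.22e-08), and it was the 1 of 5 tested gibberellin genes that passed. Of 9 tested brassinosteroid genes, 2 fell and 0 rose: BR6OX2, the last enzyme of brassinolide synthesis, had -1.31 ± 0.28, and ROT3 had -0.60 ± 0.17. BR6OX2 was -0.77 against wild type at 60 min alone. ROT3 was -1.80 against wild type at 60 min alone. It did not pass under quantile normalisation (0.42), with a spread that follows the mean, or in 6 of the 12 fits without 1 array (-0.66 to -0.53).

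Of 10 tested type-A response regulators of cytokinin, ARR9 rose by 0.77 ± 0.21 and 0 fell. The largest response in size was that of ARR16, at -1.64, which did not pass. ARR16 did pass against its own 0 min alone (-1.34), against wild type at 60 min alone (-1.57) and with the wild type of both days (-1.63). It also passed with array weights, with the arrays of the contrast alone and without KAN1-GR replicate 2 at 60 min (-1.93). ARR9 did not pass against its own 0 min alone (0.25), against wild type at 60 min alone (0.16), with the wild type of both days (0.46), without KAN1-GR replicate 1 at 0 min (0.73) or without KAN1-GR replicate 2 at 60 min (0.68). Of 5 tested cytokinin synthesis and breakdown genes, IPT3, which makes cytokinin, had -1.33 ± 0.35 and 0 rose. IPT3 did not pass in 4 of the 12 fits without 1 array (-1.59 to -1.08) or under quantile normalisation (-1.20), and was -0.84 against its own 0 min alone. KMD1 and KMD2, F-box genes whose proteins target type-B cytokinin response regulators for breakdown, had -1.503 ± 0.36 and -1.04 ± 0.25, and KMD3 and KMD4 had 0.36 and -0.28 and did not pass. KMD3 was 2.73 against its own 0 min alone and -1.04 under quantile normalisation, and both passed, in opposite directions. KMD4 passed under quantile normalisation (-0.69) and against wild type at 60 min alone (-0.48). KMD1 was -2.32 and KMD2 -1.61 against wild type at 60 min alone.

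Among the growth-promoting bHLH genes of the BEE, PRE and HBI1 group, 1 of 5 tested fell and 0 rose. BEE1 read -2.48, -1.56 and -2.21 in KAN1-GR at 60 min and 0.014, -0.25 and -0.082 in KAN1-GR at 0 min, against 0.34, 0.18 and 0.52 in wild type at 60 min and 0.062, -0.21 and -0.18 in wild type at 0 min, a response of -2.44 ± 0.34. HBI1 itself had -0.55 and did not pass; it was lower at 60 than at 0 min in both genotypes, with changes of -1.55 in KAN1-GR and -0.99 in wild type. Of 5 tested phytochrome-interacting factors and shade bHLH genes, PIF3 fell (-1.63 ± 0.20) and PIF1 rose by 1.13 ± 0.24. PIF3 read -1.77, -1.14 and -1.496 in KAN1-GR at 60 min and -0.026, -0.030 and 0.15 in KAN1-GR at 0 min, against 0.11, -0.053 and 0.32 in wild type at 60 min and -0.023, 0.059 and -0.052 in wild type at 0 min.

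Leaf growth regulators of the CIN-type TCP class, which limit cell division at leaf margins, fell in 3 of 7 tested, and 0 rose, with a median of -0.80. TCP10 read -1.45, -1.03 and -1.95 in KAN1-GR at 60 min and 0.48, 0.29 and 0.33 in KAN1-GR at 0 min, against 0.25, 0.14 and 0.00028 in wild type at 60 min and -0.27, -0.18 and -0.28 in wild type at 0 min, a response of -2.22 ± 0.28 (adjusted p = 1.50e-06). TCP4 and TCP3 had -1.005 ± 0.23 and -0.80 ± 0.21. TCP4 was -0.62 against its own 0 min alone and -0.59 against wild type at 60 min alone, and TCP3 was -0.44 against the same arrays and did not pass without KAN1-GR replicate 3 at 0 min (-0.70). Of 9 tested cell division genes, KRP1, an inhibitor of cyclin-dependent kinases, fell (-2.19 ± 0.36) and 0 rose. Of 12 tested expansin and XTH genes, whose products loosen the cell wall, EXPA1 fell (-2.20 ± 0.27) and EXPA10 rose by 1.17 ± 0.25.

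Further lists stand for handling, time of day and tissue makeup. Of 11 clock genes, 6 heat shock genes, 6 photosynthesis genes, 9 root genes and 4 shoot meristem genes, 0 passed in either direction, with medians of 0.20, 0.22, -0.054, 0.0018 and -0.28. Of 17 touch and wound genes, 3 rose and 1 fell, with a median of 0.45: ERF2 had 1.63 ± 0.35, ZAT12 1.47 ± 0.39, ERF6 1.30 ± 0.40 and WRKY18 -1.14 ± 0.23. These 3 risen genes stood lower in KAN1-GR than in wild type before DEX, with differences of -0.80, -1.51 and -0.91. Against wild type at 60 min alone they were 0.83, -0.046 and 0.39, of which ZAT12 and ERF6 did not pass. ERF6 also did not pass in 9 of the 12 fits without 1 array (0.99 to 1.47), with the wild type of both days (0.99), with all probe sets tested or with an unmoderated spread. ZAT12 did not pass without KAN1-GR replicate 2 at 60 min (1.27), and WRKY18 did not pass under quantile normalisation (-0.72). The phloem transporter gene SUC2 was the 1 of 10 vascular genes that passed, at -0.48 ± 0.13. SUC2 did not pass without wild-type replicate 4 at 0 min (-0.38), wild-type replicate 6 at 60 min (-0.39) or KAN1-GR replicate 3 at 0 min (-0.43). It also did not pass against its own 0 min alone (-0.25) or with the arrays of the contrast alone. Of 6 flavonoid genes, the regulator MYB12 had 1.10 ± 0.24, but 0.39 against its own 0 min alone and 0.10 against wild type at 60 min alone, and neither passed. The part of these genes in the other results was not tested.

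Medians not given above were -0.40 for HD-ZIPIII, -0.13 for LITTLE ZIPPER, -0.33 for auxin synthesis, 0.022 for auxin receptors and ARFs, -0.044 for cytokinin response, -0.74 for cytokinin synthesis and breakdown, and -0.66 for KMD genes. They were -0.13 for gibberellin, -0.025 for brassinosteroid, -0.49 for BEE, PRE and HBI1, 0.066 for PIF, -0.25 for vascular, -0.15 for cell division, -0.066 for flavonoid and -0.12 for expansin and XTH genes. Over all 31 lists, 261 of 342 genes were tested, and 16 rose and 40 fell. The lists were chosen with results of these data known, so these counts are a description and not evidence of a direction.

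**Figure D3:**
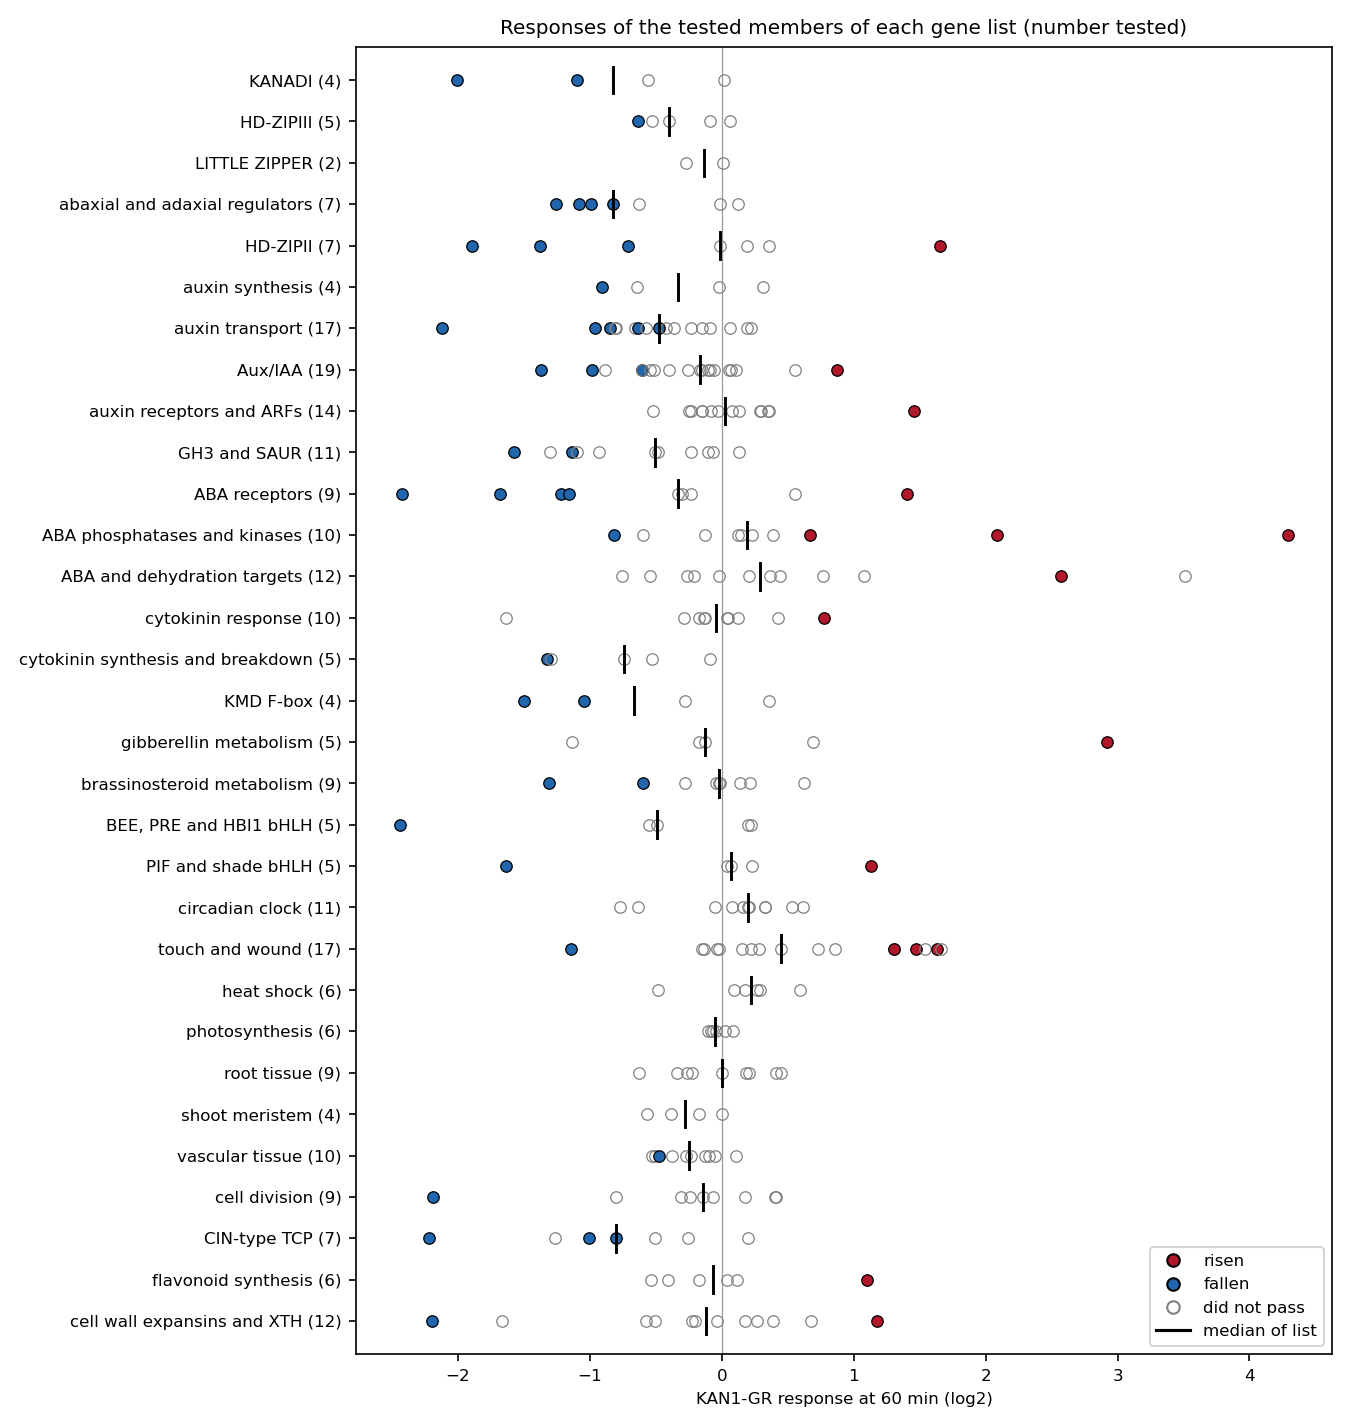
Responses of the tested members of each of the 31 gene lists on the horizontal axis (log2), with risen genes in red, fallen genes in blue, genes that did not pass as open circles and list medians as bars. The medians of the KANADI list, which holds the KAN1 probe set that also reads the transgene, and of the CIN-type TCP list lie at -0.83 and -0.80, and the farthest point to the right is HAI1 at 4.29 among the ABA phosphatases and kinases.

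The response at 30 min, taken the same way, had 387 called probe sets (2.4% of those tested), 112 risen (0.694%) and 275 fallen (1.71%). It shares the 0 min arrays with the response at 60 min, so both are given side by side and no overlap is drawn. The direct test between 30 and 60 min, in which the 0 min arrays cancel, called 56 probe sets (0.347% of those tested), 33 higher (0.205%) and 23 lower (0.143%) at 60 min. That count was 36 without wild-type replicate 4 at 60 min, 37 without wild-type replicate 5 at 30 min, and 1 with the arrays of the contrast alone.

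At 30 min CHAT read 0.22, -0.026 and -0.021 in KAN1-GR and 0.035, -0.0082 and 1.29 in wild type, a response of -0.22, against 3.44 at 60 min. GA20OX3 read -0.011, 1.19 and 0.27 in KAN1-GR and -0.034, -0.024 and -0.015 in wild type at 30 min, a response of 0.52, against 2.92 at 60 min. The differences between the times were 3.67 ± 0.26 for CHAT and 2.40 ± 0.30 for GA20OX3 (limma, adjusted p = 3.77e-11 and 2.84e-05). EDA12 differed by 2.50 ± 0.43, although its 3 KAN1-GR arrays at 30 min were spread at 0.74, 2.83 and 0.30. NAC6 had 1.87 at 30 min and differed by 1.37 ± 0.29.

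Among the fallen, CRK30 had -2.58 at 30 min and -5.33 at 60 min, a difference of -2.75 ± 0.58 (adjusted p = 0.0186), with KAN1-GR arrays at 30 min of -3.03, -0.85 and -0.32. LURP1, a gene induced late in defence against downy mildew, differed by -3.60 ± 0.83, with responses of 1.63 at 30 min and -1.97 at 60 min, the second of which did not pass (limma, adjusted p = 0.178). DEWAX had a response of -4.51 at 30 min and -4.34 at 60 min, and SAUR1 had -4.18 and -4.73. The differences of both between the times did not pass (limma, adjusted p = 0.962 and 0.808). PIN4 had -0.71 at 30 min and -2.12 at 60 min, and ABI2 had 0.82 and 2.09, and both differed between the times (limma, adjusted p = 0.000551 and 1.23e-05).

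**Figure D4:**
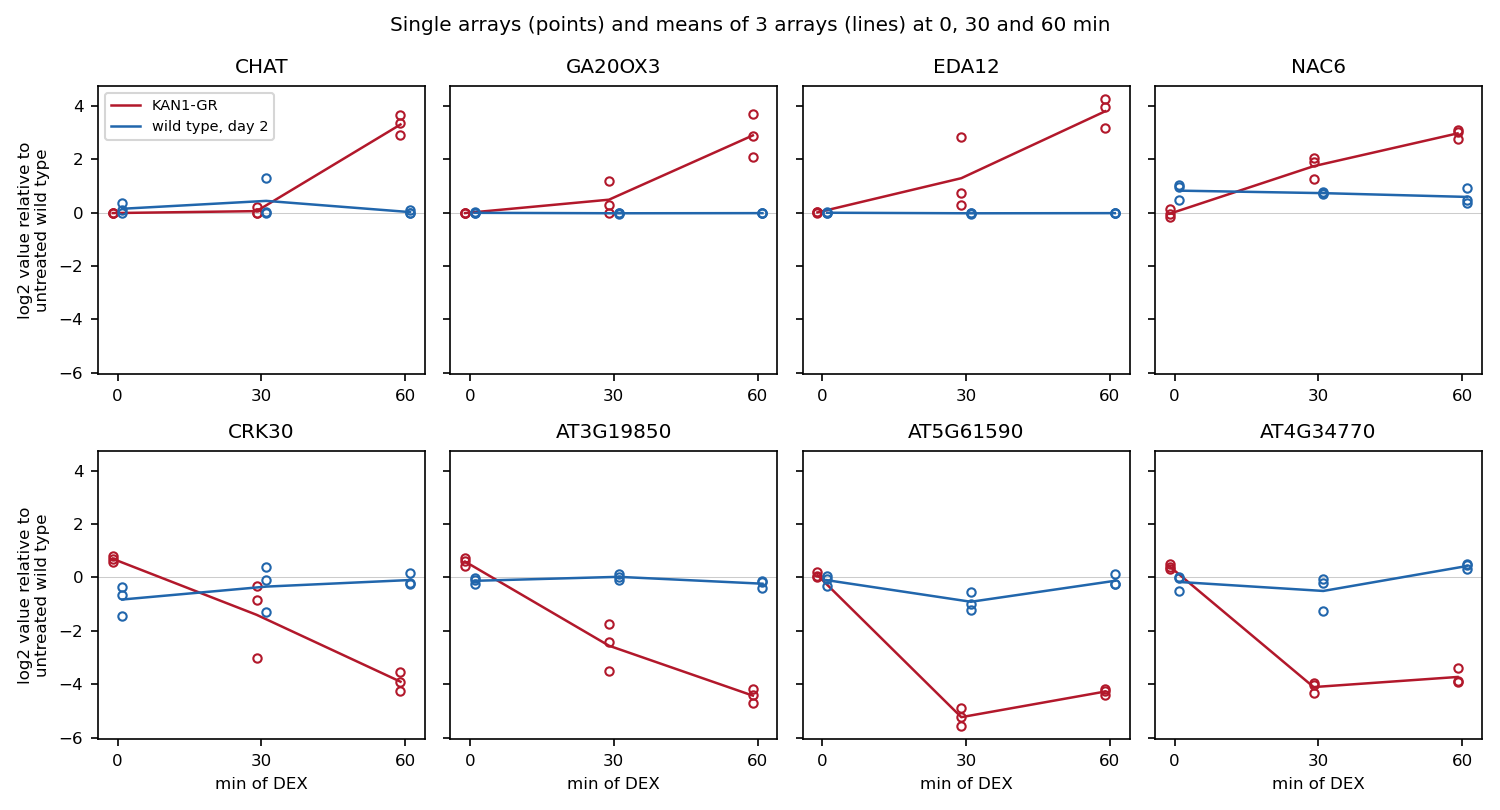
Log2 values relative to untreated wild type (vertical axis) at 0, 30 and 60 min of DEX (horizontal axis) in KAN1-GR (red) and day 2 wild type (blue), for 4 risen and 4 fallen genes; points are arrays and lines join means of 3. CHAT in KAN1-GR stays near 0 at 30 min and reaches 2.92 to 3.64 at 60 min, while AT5G61590 lies at its lowest, -4.89 to -5.56, at 30 min.

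The KAN1-GR response was then set against the GR-REV response at 60 min, which was measured against its own wild type and shares no array with it. The GR-REV response passed in 704 probe sets (4.36% of those tested), 283 risen (1.75%) and 421 fallen (2.61%). The responses differed from each other in 1026 probe sets (6.36% of those tested), 529 higher (3.28%) and 497 lower (3.08%) in KAN1-GR. Both responses passed in 178 probe sets, 16.1% of the KAN1-GR calls and 25.3% of the GR-REV calls. Of these, 96 had opposite signs, 54 risen in KAN1-GR and fallen in GR-REV and 42 fallen in KAN1-GR and risen in GR-REV. All 96 differed in the direct test, but passing in both lines with opposite signs made this nearly certain, so it adds no support. The other 82 had the same sign, 59 fallen and 23 risen in both. Over all tested probe sets the responses correlated weakly, at -0.088; this is across probe sets, which are not independent.

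Among the genes with opposite signs, NAC6 rose in KAN1-GR (3.24 ± 0.29) and fell in GR-REV (-2.69 ± 0.29), a difference of 5.93 ± 0.41 (limma, adjusted p = 9.72e-12). AT1G70985 fell in KAN1-GR (-2.44 ± 0.38, or -1.58 against its own 0 min alone) and rose in GR-REV (3.15 ± 0.38). Its values were -1.47, -1.45 and -1.45 in KAN1-GR at 60 min and -0.11, 0.13 and 0.35 in KAN1-GR at 0 min, while GR-REV averaged 2.87 ± 0.21 at 60 min and -0.42 ± 0.31 at 0 min (SD, n = 3 each). The ABA receptor PYL6 fell in KAN1-GR (-2.42 ± 0.23) and rose in GR-REV (1.93 ± 0.23), averaging 1.39 ± 0.034 in GR-REV at 60 min and -0.40 ± 0.29 in GR-REV at 0 min (SD, n = 3 each).

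The transporter gene ABCG18 rose in KAN1-GR (2.11 ± 0.34) and fell in GR-REV (-2.07 ± 0.34), and the BTB/TAZ scaffold gene BT4 did likewise (1.505 ± 0.25 in KAN1-GR and -1.55 ± 0.25 in GR-REV). ABCG18 was 1.35 in KAN1-GR under quantile normalisation. AT3G60520, AT1G20823 and AT4G29570 also rose in KAN1-GR, by 1.61, 2.15 and 3.37, and fell in GR-REV, with -1.81, -1.77 and -2.33. AT1G20823 did not pass in KAN1-GR under quantile normalisation (1.29, adjusted p = 0.0576), and AT4G29570 was given above. AT2G40435 and AT2G31110 (TRICHOME BIREFRINGENCE-LIKE by its synonym) fell in KAN1-GR (-2.28 and -1.57) and rose in GR-REV (1.68 and 2.48). Neither of them passed in KAN1-GR under quantile normalisation (-0.83 and -1.38), nor AT2G31110 without wild-type replicate 5 at 60 min (-1.37). Against wild type at 60 min alone they were -3.66 and -0.82.

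Several genes of the polarity and hormone lists were in this opposed set. HAT2 had -1.38 ± 0.24 in KAN1-GR and 1.81 ± 0.24 in GR-REV, and HAT1 had -0.71 ± 0.20 in KAN1-GR and 1.87 ± 0.20 in GR-REV. TAA1 had -0.91 ± 0.24 in KAN1-GR and 1.37 ± 0.24 in GR-REV, a difference of -2.28 ± 0.34. CIPK12 had -0.82 ± 0.16 in KAN1-GR and 1.36 ± 0.16 in GR-REV, and EXPA10 had 1.17 ± 0.25 in KAN1-GR and -1.22 ± 0.25 in GR-REV. The KAN1-GR calls of HAT1 and TAA1 were lost with some arrays left out, as given above. ZPR1 and ZPR3 had -0.27 and 0.0066 in KAN1-GR, which did not pass, and 3.58 and 3.44 in GR-REV, which did; the differences were -3.86 ± 0.44 and -3.44 ± 0.81 (adjusted p = 3.01e-07 and 0.00664).

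Genes that went the same way included the cation exchanger CAX7, which fell in KAN1-GR (-2.75 ± 0.48) and in GR-REV (-2.33 ± 0.48), and BEE1 (-2.44 ± 0.34 in KAN1-GR and -1.80 ± 0.34 in GR-REV). EDA39, also listed as the calmodulin-binding IQM1, had -2.27 ± 0.35 in KAN1-GR and -1.78 ± 0.35 in GR-REV. AT5G62730 had -3.14 ± 0.66 in KAN1-GR, lost under quantile normalisation as above, and -2.88 ± 0.66 in GR-REV, and AT2G36970 had -2.67 ± 0.36 in KAN1-GR and -1.46 ± 0.36 in GR-REV. AT5G01740 had -1.55 ± 0.40 in KAN1-GR and -2.72 ± 0.40 in GR-REV; in KAN1-GR it did not pass against wild type at 60 min alone (-0.68) or without KAN1-GR replicate 3 at 60 min (-1.20).

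Risen in both were the amino acid permease AAP3 (1.96 ± 0.25 in KAN1-GR and 1.71 ± 0.25 in GR-REV), the lectin receptor kinase gene AT3G08870 (2.49 ± 0.33 in KAN1-GR and 1.72 ± 0.33 in GR-REV) and AT5G42200 (1.72 ± 0.26 in KAN1-GR and 1.66 ± 0.26 in GR-REV). ATHB2 also rose in both, with 1.66 ± 0.28 in KAN1-GR and 1.69 ± 0.28 in GR-REV, and the difference of -0.035 ± 0.40 did not pass (adjusted p = 0.98). AAP3 read 2.21, 1.83 and 2.04 in KAN1-GR at 60 min and 0.32, 0.30 and 0.30 in KAN1-GR at 0 min, against -0.080, -0.23 and -0.16 in wild type at 60 min and -0.017, 0.017 and 0.23 in wild type at 0 min.

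**Figure D5:**
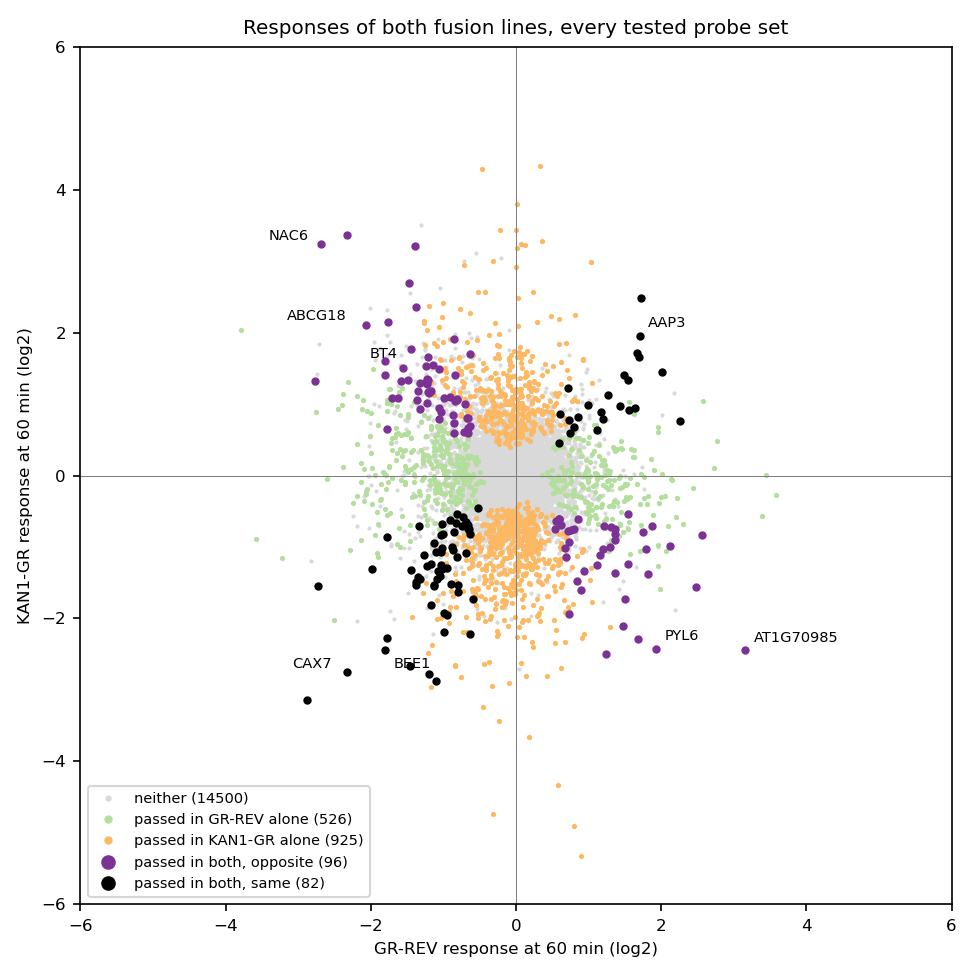
The KAN1-GR response at 60 min (vertical axis, log2) is plotted against the GR-REV response at 60 min (horizontal axis, log2) for every tested probe set, coloured by the tests they passed. The 96 opposed probe sets (purple) fill the upper left and lower right, the 82 with the same sign (black) lie in the other corners, and NAC6 and AT1G70985 lie among the opposed genes.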

How the data were processed

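Total RNA of whole seedlings was hybridised to Affymetrix arrays, 42 in 14 groups of 3. The authors deposited log2 values, made with GCRMA per the submitters' processing notes, and their own table of ANOVA p-values, used here only to choose probe sets; the values show that each probe set was centred on the untreated wild type. The log2 scale is taken from what GCRMA gives, and why some probe sets have no p is stated in none of the sources used. In all, the 16129 probe sets with a p that are no controls were tested. All 42 arrays entered 1 model with a mean for each group (R 4.3.3, limma 3.58.1; 28 residual degrees of freedom), the response taken as a contrast, and p-values adjusted by Benjamini-Hochberg over all tested probe sets, with a threshold of 0.05. The fit was tested on simulated data. P-values measure the spread between flasks.

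The genes named are the 15 largest rises and 15 largest falls among probe sets of 1 gene that passed and kept their sign against KAN1-GR at 0 min alone and against wild type at 60 min alone; every member of the 5 lists on leaf sides; the 4 members with the lowest adjusted p in every further list (fewer where a list is shorter); the 10 genes that passed in both lines with opposite signs and the 10 with the same sign whose smaller response was largest; and the 5 largest differences between the times and between the lines. List members named beyond these were chosen after their values were seen. Members and lists were chosen with earlier results of these data known. Alternatives were quantile normalisation, array medians set to 0, all probe sets, other models of the spread, array weights, a replicate block, the contrast's arrays alone, each array left out and other baselines; leaving out probe sets of high spread was added after seeing the data. Quantile normalisation was applied to the centred values and gives all arrays the same distribution, though untreated wild-type arrays lie close to 0 by the centring. It can itself alter changes, so a call or sign lost under it does not alone show a weak response. Deviations of same-numbered flasks correlated weakly, at -0.246 to 0.106. The same-numbered flask was the best match for some flasks and not for others. With so few arrays a group, these values cannot decide whether the numbers pair the flasks. Promoter sequence was not analysed here.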

Additional observations from a re-analysis of the deposited data

Results flagged for a closer look

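The KAN1-GR response differed from the GR-REV response in 1026 probe sets and between 60 and 30 min in 56, each by a direct test of the difference (limma, adjusted p under 0.05). Values below are differences of log2 responses, with the 60 min or KAN1-GR response first.

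Between 60 and 30 min, CHAT differed by 3.67, EDA12 by 2.50 and GA20OX3 by 2.40, all higher at 60 min. CRK30 (-2.75) and LURP1 (-3.60) were lower at 60 min.

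Between KAN1-GR and GR-REV, the differences were 5.93 for NAC6, 5.70 for AT4G29570, 4.18 for ABCG18, 3.91 for AT1G20823, 3.42 for AT3G60520 and 3.06 for BT4. UGT74E2, a glucosyltransferase, differed by 5.83, with a KAN1-GR response of 2.03 that did not pass (limma, adjusted p = 0.223) and a GR-REV response of -3.80. Its KAN1-GR value was 4.46 against wild type at 60 min alone and 2.77 against its own 0 min alone, and both passed. Lower in KAN1-GR were CRK30 (-6.23), AT3G19850 (-5.71), AT1G70985 (-5.60), PYL6 (-4.36), AT2G31110 (-4.05) and AT2G40435 (-3.96).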

How the results depend on the processing

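The 1103 called probe sets became 1660 under quantile normalisation (859 shared, same direction), 1984 against KAN1-GR at 0 min alone, 2898 against wild type at 60 min alone, 1738 with the wild type of both days, and 615 at 2-fold or more, which by construction is a part of them. Leaving out 1 array gave 806 to 1097, and a replicate block 1118. The KAN1-GR minus GR-REV count of 1026 was 850 to 1240 with 1 array left out and 1033 with a replicate block. The 60 minus 30 min count of 56 was 240 with array weights, 1 with the arrays of the contrast alone (fewer samples), 52 with a replicate block and 36 to 73 with 1 array left out. Of the 97 genes that the naming rule chose and that passed, 68 passed under all 25 alternatives and 29 did not under at least 1; other genes named from the lists and families, such as LAX1, PYL7 and KCS1, were not in this tally. Signs turned for ROT3 (0.42) and KMD3 (-1.04) under quantile normalisation, for KAN1 (8.46), IBH1 (-0.61), RSL4 (-1.84) and ZAT12 (-0.0457) against wild type at 60 min alone, and for PIF4 (-0.63) against its own 0 min alone. A value against wild type at 60 min alone equals the response plus the difference before DEX, which for KAN1 includes the transgene's signal. A value against the own 0 min alone equals the response plus the change of wild type. The cause of the turns under quantile normalisation was not tested. With 3 arrays a group, small responses were not detectable, and probe sets with no deposited p were not analysed beyond 1 alternative.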

Other observations

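Gene families were also counted by the stem of their symbols, with at least 12 tested genes each; those below were chosen after their values were seen and carry no test. Of 13 KCS genes, condensing enzymes of very-long-chain fatty acid synthesis, 6 fell and 0 rose: KCS1 (-1.26), KCS19 (-1.14), KCS6 (-0.78), KCS20 (-0.65), KCS4 (-0.57) and KCS10 (-0.55). KCS1 read -1.54, -1.42 and -1.57 in KAN1-GR at 60 min and -0.50, -0.38 and -0.25 in KAN1-GR at 0 min, against 0.25, 0.22 and 0.089 in wild type at 60 min and 0.016, 0.26 and -0.084 in wild type at 0 min, with the treated KAN1-GR arrays below all others. Beside CRK30, the cysteine-rich receptor kinase genes CRK21 (-1.27) and CRK28 (-1.25) fell. Of 13 CIPK calcium-linked kinases, 4 fell, among them CIPK15 (-1.69), and CIPK3 rose (1.18).

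Of 33 NAC genes, 8 rose, among them NAC032 (1.90) and NAC102 (1.17), and 2 fell, NAC1 (-0.95) and NAC083 (-0.69). Of 93 EMB genes, named for embryo lethality, 0 rose and 0 fell. Over all tested probe sets, 2.88% rose and 3.96% fell.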
